A study of Mus musculus with 10 samples.

Results

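The genes described here are 9 transcription factors that give the embryonic dorsal telencephalon its identity and lay out its areas: Emx1, Emx2, Lhx2, Lhx9, Nr2f1, Nr2f2, Sp8, Dmrta2 and Otx1. They were chosen by symbol from the 53379 genes counted in each library. The rule itself uses no measured value, but earlier results of these data were known when it was set. All 9 had a mean of at least 10 reads per library and were among the 11551 genes tested. In cells that had lost Cdkn1c, Nr2f2 and Dmrta2 were higher than in control cells, none of the 9 passed the test as lower, and the other 7 did not pass it in either direction. Nr2f2 was called in 20 of 20 alternative settings and Dmrta2 in 11 of 20.

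Cells were taken at E16 from the dissected neocortex of single mouse embryos, 1 embryo per library, and 400 cells per library were sorted for their MADM labels. MADM (mosaic analysis with double markers) uses Cre-driven exchange between paired chromosomes to switch on fluorescent proteins, and cells with GFP, tdT or both were pooled here. The 3 cKO-Cdkn1c-MADM-7 embryos carried a Cdkn1c-flox allele on both chromosomes 7, MADM-7 GT and MADM-7 TG, together with Emx1-Cre. The 7 control MADM-7 embryos carried the same MADM cassettes and Emx1-Cre without the flox alleles, and Cdkn1c encodes the imprinted cell cycle inhibitor p57. Cre is driven from the Emx1 locus, which is active in dorsal telencephalic progenitors, so labelled cells are those progenitors and their progeny, and Emx1 itself carries the Cre allele in both genotypes. The strain background was labelled CD1 and elsewhere given as mixed C57BL/6J and CD1, and embryos of both sexes were used without separation.

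The cortical sheet is patterned in progenitors before its neurons settle into areas. Signalling centres at its edges, a rostral source of FGFs and a dorsomedial hem that releases WNTs and BMPs, set up opposing gradients of transcription factors, which bias progenitors toward rostral or caudal, medial or lateral fates. Emx2 and Nr2f1 act on the caudal side of this system and Sp8 on the rostral side, Dmrta2 acts medially and caudally, Lhx2 decides between cortex and hem, and several of these factors stay on in subsets of neurons.

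Promoter sequence is shown for Nr2f2 and Dmrta2, the members called, and for Emx2, the next by p, because transcripts of these genes start there. RefSeq promoter windows on GRCm38.p6, from 250 bases before to 50 bases after an annotated start, matched 8 of the 9 members by symbol, all but Otx1, with 12 windows in all. Each sequence reads 5′ to 3′ on the strand of the gene, and capitals mark the GC box GGGCGG, the homeodomain core TAATTA and the nuclear receptor half-site AGGTCA, searched on both strands.
Nr2f2, minus strand, chr7:70366697-70366996: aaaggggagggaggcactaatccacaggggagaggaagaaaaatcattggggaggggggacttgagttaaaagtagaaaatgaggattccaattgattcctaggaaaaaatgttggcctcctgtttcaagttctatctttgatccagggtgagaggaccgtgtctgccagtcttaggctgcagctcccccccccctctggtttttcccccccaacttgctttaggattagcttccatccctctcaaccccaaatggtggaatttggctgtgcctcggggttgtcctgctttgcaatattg
Dmrta2, plus strand, chr4:109977775-109978074: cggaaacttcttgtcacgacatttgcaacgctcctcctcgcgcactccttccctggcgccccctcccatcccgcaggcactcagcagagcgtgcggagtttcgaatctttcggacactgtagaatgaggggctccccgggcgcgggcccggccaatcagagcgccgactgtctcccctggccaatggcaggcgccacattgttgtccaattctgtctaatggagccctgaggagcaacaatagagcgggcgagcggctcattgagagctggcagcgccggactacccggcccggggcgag
Emx2, plus strand, chr19:59458440-59458739: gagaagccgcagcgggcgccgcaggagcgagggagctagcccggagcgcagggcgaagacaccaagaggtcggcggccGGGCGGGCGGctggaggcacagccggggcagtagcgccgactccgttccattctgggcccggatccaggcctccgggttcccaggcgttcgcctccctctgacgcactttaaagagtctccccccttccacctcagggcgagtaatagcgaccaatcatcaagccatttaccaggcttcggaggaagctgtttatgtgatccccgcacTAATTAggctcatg
The Nr2f2 window held 49.7% G and C, 2 CpG dinucleotides and none of the 3 motifs. The Dmrta2 window held 63.7% G and C, 26 CpG dinucleotides and none of the motifs. In the Emx2 window, with 64.3% G and C and 26 CpG dinucleotides, there were 2 overlapping GC boxes and 1 homeodomain core. Over all 32851 windows of the RefSeq table the medians were 52.7% G and C and 7 CpG dinucleotides, and 35.7% held a GC box, 5.29% a homeodomain core and 16.3% a half-site. Of the 12 windows of the members, 5 held a GC box, 2 a homeodomain core and 1 a half-site.

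Reads on genes ran from 2417184 to 2998916 in the cKO libraries and from 1738220 to 3362487 in the controls. Reads are not molecules, since the Smart-Seq2 libraries carried no molecular identifiers, so counting error is understated by the read numbers. Cdkn1c had 10 to 32 reads in cKO and 116 to 369 in controls, and its log2 fold change was -3.66 (SE 0.31, edgeR adjusted p = 3.68e-06), with every cKO library below every control as labelled. Projection neuron markers reached summed levels of 2698 CPM and above in every library, and radial glia markers 1560 CPM and above, so both cell classes of E16 neocortex were present. CPM denotes read counts scaled to a common library size with TMM factors. The share of reads outside genes split the libraries into a lower set of 1 cKO and 4 controls, at 5.47% to 8.64%, and a higher set of 2 cKO and 3 controls, at 12.8% to 16.7%, and differences within these sets are given below. Hemoglobin and other red blood cell markers summed to over 1000 CPM in 3 libraries, cKO replicate 1 and control replicates 2 and 5, and to 64.95 CPM at most in the other 7.

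Of all 11551 genes tested, 3.15% were called at an edgeR adjusted p under 0.05, 2.27% higher and 0.883% lower in cKO. Of the 9 patterning factors, 2 were called higher (22.2%) and 0 lower. DESeq2 called 2 of the 9 higher and 0 lower, beside 300 higher and 210 lower of all 11551 genes. Limma-voom called 1 of the 9 higher and 0 lower, beside 214 and 83 of all 11551 genes. At an unadjusted edgeR p under 0.05 there were 4 of 9 (44.4%), all higher, against 16.4% of all genes, and in 3 of 9 (33.3%) against 6.00% of all genes no cKO library overlapped with any control. Log2 fold changes were positive for 8 members and negative for 1, with a median of 0.55 against 0.01 over all genes tested. The members were chosen with earlier results of these data known, so these shares and medians are descriptions. Each library mixes progenitors and neurons, so a change in the number of cells of a type and a change in the RNA of each cell cannot be told apart. Without the 3 libraries rich in red blood cell markers, 1 member was called, Nr2f2, beside 278 of 11540 genes (192 higher and 86 lower).

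**Figure D1:**
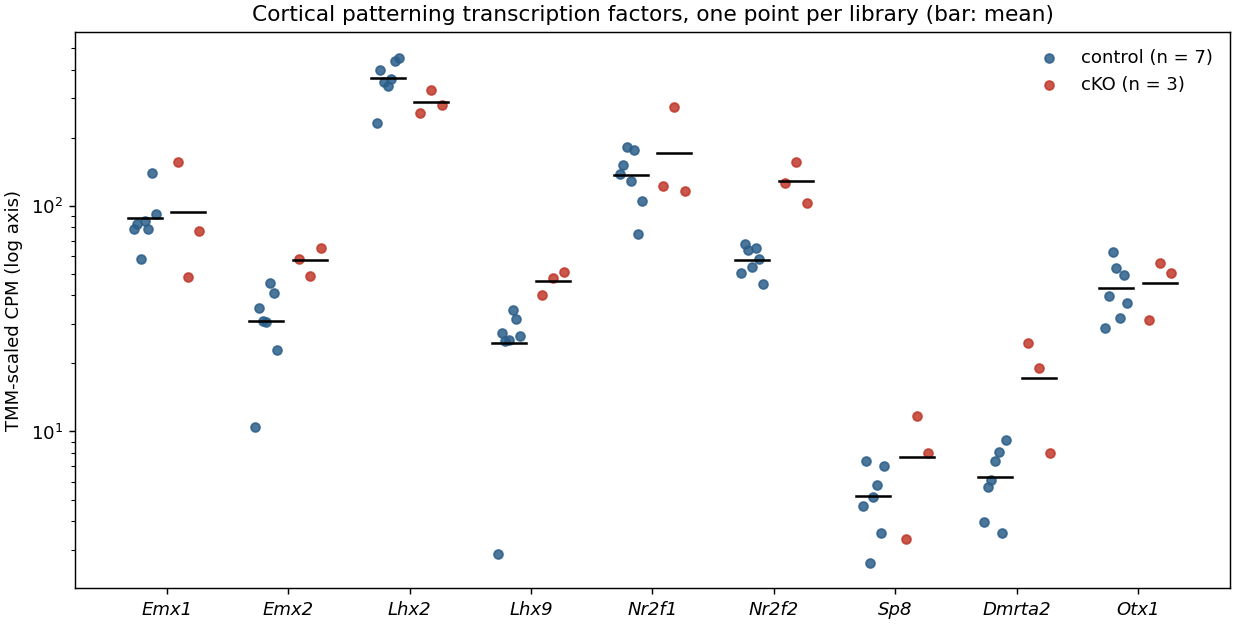
TMM-scaled CPM (log axis) of the 9 patterning factors in 7 control libraries (blue) and 3 cKO libraries (red), with 1 point per library and a black bar for the mean of each group. The 3 red points lie above all blue points for Nr2f2, Emx2 and Lhx9, while cKO replicate 3 of Dmrta2, at 7.99 CPM, lies within the control range.

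The COUP-TF nuclear receptors Nr2f1 and Nr2f2 are orphan receptors that repress and activate transcription, Nr2f1 as a caudal area determinant and Nr2f2 in caudal ganglionic eminence, temporal cortex and venous endothelium. Nr2f2 (ENSMUSG00000030551.14, GRCm38 chr7:70351944-70366735, minus strand) lies on the chromosome that carries Cdkn1c and the MADM cassettes. Its level was 126, 156 and 103 CPM in cKO replicates 1, 2 and 3, and the controls had a lowest value of 45.1, a median of 58.1 and a highest of 67.9 CPM. Every cKO library was above every control, with a clear gap between the genotypes. The mean was 128 ± 26.5 CPM (SD, n = 3) in cKO and 57.6 ± 8.29 CPM (SD, n = 7) in controls, from 245 to 399 and 112 to 217 reads. Its fold change was 2.23 (95% interval 1.74 to 2.87), which on the log2 scale is 1.16 (SE 0.17, edgeR adjusted p = 0.000725). The exact permutation test over samples gave a two-sided p = 0.0167, the smallest that 3 libraries against 7 allow when the smaller tail is doubled, and 0.00833 when counted over absolute differences. Within the sets by share of reads outside genes, the difference in mean log2(CPM + 0.5) was 0.91 in the lower and 1.21 in the higher set. Of all members, Nr2f2 also had the smallest spread between controls, a coefficient of variation of 14.4%.

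Nr2f1 (ENSMUSG00000069171.14, chr13:78188973-78199757, minus strand) had 122, 273 and 117 CPM in the cKO libraries, and its controls ran from 74.5 through a median of 138 to 181 CPM. Only cKO replicate 2 was beyond the controls, above them, and the other cKO libraries were below the control median. The log2 fold change was 0.33 (SE 0.27, 95% interval -0.24 to 0.89, edgeR adjusted p = 0.614), and without cKO replicate 2 it was -0.19. Exons of Nr2f1 share 123 bases with the antisense gene A830082K12Rik, and reads on shared bases were left out of the count used. With reads assigned by strand Nr2f1 gained from 3986 to 4133 reads over all libraries. Nr2f2 shares 643 bases with B130024G19Rik and gained from 2139 to 2181 reads.

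Dmrta2 (ENSMUSG00000047143.3, chr4:109978053-109983687, plus strand) encodes a doublesex-related zinc finger protein needed for the hem, the hippocampus and caudomedial cortex. It had 24.8, 19.1 and 7.99 CPM in cKO replicates 1, 2 and 3, and the controls had a lowest value of 3.57, a median of 6.13 and a highest of 9.17 CPM. The first and second cKO libraries were above all controls and the third was above the control median but below the highest control. Mean levels were 17.3 ± 8.53 CPM (SD, n = 3) and 6.28 ± 2.08 CPM (SD, n = 7), a fold change of 2.85 (95% interval 1.67 to 4.86) and a log2 fold change of 1.51 (SE 0.37, edgeR adjusted p = 0.0300). The two-sided exact permutation p was 0.05. Few reads stand behind these values, 19 to 74 in cKO and 10 to 26 in controls. The call was lost when cKO replicate 1 was left out (log2 fold change 1.14, edgeR adjusted p = 0.179), and it was also lost without cKO replicate 2 or without control replicate 1, 2, 3 or 6, at edgeR adjusted p from 0.0517 to 0.0685. In the lower set of libraries by share outside genes, which holds cKO replicate 3, the difference was 0.57 on the log2(CPM + 0.5) scale, and in the higher set it was 1.54.

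Sp8 (ENSMUSG00000048562.7, chr12:118846329-118852576, plus strand), a zinc finger factor that works with FGF signalling on the rostral side, was the lowest of the 9 genes. The cKO libraries had 3.34, 11.7 and 7.99 CPM, and the controls 2.63 to 7.43 CPM with a median of 5.14. Its groups overlapped, with replicates 2 and 3 of cKO above the highest control and replicate 1 below the control median. The log2 fold change was 0.55 (SE 0.43, 95% interval -0.36 to 1.47, edgeR adjusted p = 0.588). Sp8 had 10 to 30 reads in cKO and 9 to 21 in controls. Its log2 fold change was 0.96 without cKO replicate 1 (edgeR adjusted p = 0.279), 0.10 without cKO replicate 2 (edgeR adjusted p = 0.951), and 1.11 without the 3 libraries rich in red blood cell markers (edgeR adjusted p = 0.272).

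The homeodomain factors Emx1 and Emx2 are paralogs of the fly gene empty spiracles. Emx2, graded from high caudomedial to low rostrolateral in the cortex, favours caudal areas, and Emx1 marks the dorsal telencephalic lineage with a milder role. Emx2 (ENSMUSG00000043969.4, chr19:59458372-59465357, plus strand) had 58.2, 48.8 and 64.8 CPM in the cKO libraries, and the controls had a lowest value of 10.4, a median of 30.9 and a highest of 45.6 CPM. No cKO library overlapped the controls, although cKO replicate 2 was close to the highest of them. Means were 57.3 ± 8.02 CPM (SD, n = 3) and 31.0 ± 11.7 CPM (SD, n = 7). The log2 fold change was 0.91 (SE 0.28, 95% interval 0.32 to 1.498). The edgeR adjusted p = 0.0910, so Emx2 did not pass the test, and before adjustment the model gave 0.00447. Its exact permutation p was 0.0167, and 0.05 when counted over absolute differences, a count added after the values had been seen. Without control replicate 1, the lowest control, the log2 fold change was 0.76 (edgeR adjusted p = 0.0858). Within the sets by share outside genes the difference was 1.39 in the lower and 0.60 in the higher set, on the log2(CPM + 0.5) scale. The antisense gene Emx2os shares 264 exonic bases with Emx2, and assignment by strand changed Emx2 from 1042 to 1046 reads in all.

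Emx1 (ENSMUSG00000033726.8, chr6:85187438-85204462, plus strand) had 156, 48.0 and 77.0 CPM in cKO replicates 1, 2 and 3. Its controls ran from 58.1 through a median of 82.8 to 139.8 CPM. For cKO, 1 library was above the control range, 1 below it and 1 inside, and no direction was held in common. Mean levels were 93.7 ± 56.0 CPM (SD, n = 3) and 87.8 ± 25.2 CPM (SD, n = 7). The log2 fold change was 0.11 (SE 0.29, 95% interval -0.50 to 0.73, edgeR adjusted p = 0.893), and the difference of mean log2(CPM + 0.5) was -0.03, of opposite sign. Without cKO replicate 1 the log2 fold change was -0.49.

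Lhx2 and Lhx9 are LIM-homeodomain paralogs that need the LIM-binding proteins Ldb1 and Ldb2 to act. Lhx2 is a selector of cortical identity whose loss turns medial cortex into hem, and Lhx9 is known from the diencephalon and the developing gonad. Lhx9 (ENSMUSG00000019230.14, chr1:138825186-138848577, minus strand) had 40.1, 47.7 and 50.9 CPM in the cKO libraries. The controls had a lowest value of 2.88, a median of 26.5 and a highest of 34.6 CPM. Every cKO library was above every control, and control replicate 1, with 8 reads, was far below the other controls. Means were 46.2 ± 5.53 CPM (SD, n = 3) and 24.7 ± 10.2 CPM (SD, n = 7). The log2 fold change was 0.92 (SE 0.33, 95% interval 0.21 to 1.62), and Lhx9 did not pass the test (edgeR adjusted p = 0.164). Without control replicate 1 the log2 fold change was 0.72 (edgeR adjusted p = 0.0837). The exact permutation p was 0.0167, and 0.142 when counted over absolute differences. The difference was 1.61 in the lower set by share outside genes, which holds control replicate 1, and 0.63 in the higher set, on the log2(CPM + 0.5) scale.

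Lhx2 (ENSMUSG00000000247.11, chr2:38339281-38369733, plus strand) was the only member with a negative fold change in the fit of all libraries. Its cKO levels were 257, 323 and 279 CPM, and the controls ran from 233 through a median of 363 to 452 CPM. All 3 cKO libraries were below the control median, and of the controls replicate 1 alone was below them. Mean levels were 286 ± 33.8 CPM (SD, n = 3) and 368 ± 73.2 CPM (SD, n = 7), with a log2 fold change of -0.36 (SE 0.18, 95% interval -0.73 to 0.01, edgeR adjusted p = 0.319). Without control replicate 1 the log2 fold change was -0.45 (edgeR adjusted p = 0.118). The sign was the same in both sets by share outside genes, at -0.40 and -0.28.

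Otx1 (ENSMUSG00000005917.15, chr11:21994764-22002897, minus strand), an orthodenticle homeodomain factor of progenitors and deep-layer neurons, had 31.1, 55.5 and 50.1 CPM in cKO. Controls ran from 28.8 through a median of 40.0 to 62.2 CPM, and all cKO libraries lay within that range. The log2 fold change was 0.04 (SE 0.26, 95% interval -0.50 to 0.58, edgeR adjusted p = 0.959). The intervals of Otx1, Emx1, Lhx2 and Nr2f1, 4 of the 9 members, lay between -1 and 1, so a log2 change of 1 or more in either direction lay outside them.

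**Figure D2:**
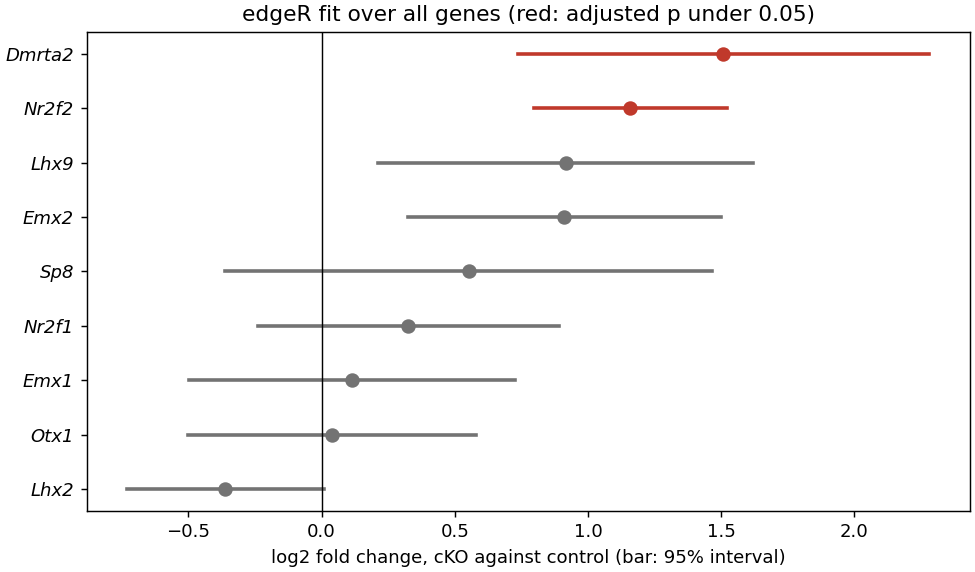
Log2 fold change of cKO against control for each patterning factor (point) with its 95% interval (bar) from the edgeR fit, in order of size, with the factors called at an adjusted p under 0.05 in red. Nr2f2 at 1.16 and Dmrta2 at 1.51 are red, the bars of Lhx9 and Emx2 also lie above 0, and the bars of the other 5 factors cross 0.

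Levels of different genes were compared as RPKM, the same scaled counts divided by exon length in kilobases, with the exons of all transcripts of a gene merged. In the controls the order was Lhx2, with 83.7 ± 16.7 RPKM (SD, n = 7), then Emx1 with 40.2 ± 11.5, Nr2f1 with 26.8 ± 7.48, Emx2 with 10.3 ± 3.90, Otx1 with 7.96 ± 2.23, Nr2f2 with 6.68 ± 0.961, Lhx9 with 2.60 ± 1.08, Dmrta2 with 2.15 ± 0.713 and Sp8 with 1.14 ± 0.383. Lhx2 was above Emx1, Nr2f1 above Emx2, Nr2f2 above Lhx9 and Dmrta2 above Sp8 in all 7 controls. The neighbours Otx1 and Nr2f2 kept their order in 4 controls, Emx2 and Otx1 in 5, Lhx9 and Dmrta2 in 5, and Emx1 and Nr2f1 in 6, so these pairs were not separated beyond their spread in every library. Among all genes tested Lhx2 stood at percentile 93.7 of the control level, Emx1 at 86.7, Nr2f2 at 49.3, Dmrta2 at 19.8 and Sp8 at 8.71. In cKO the mean levels were 14.9 ± 3.07 RPKM (SD, n = 3) for Nr2f2, 8.40 ± 2.36 for Otx1, 5.92 ± 2.92 for Dmrta2 and 4.87 ± 0.582 for Lhx9, and Lhx9 was above Dmrta2 in cKO replicate 3. The order of these genes depends on the length used. With the longest transcript in place of merged exons, Nr2f2 was above Otx1 in both genotypes, at 13.6 against 8.18 RPKM in controls, and Lhx9 was above Dmrta2 in both, at 9.36 against 5.92 RPKM in cKO.

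**Figure D3:**
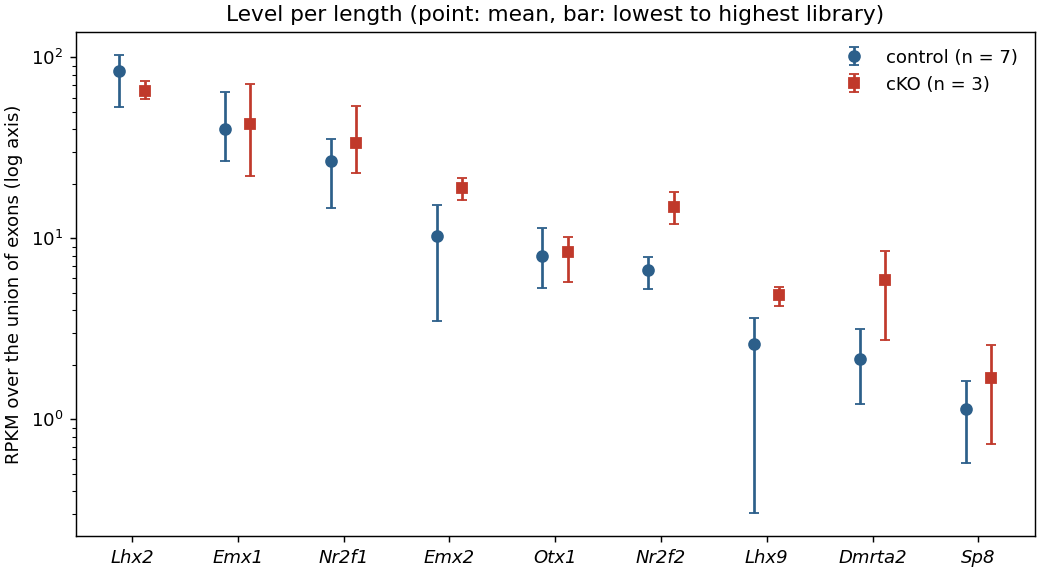
Level per length of the 9 patterning factors in RPKM over merged exons (log axis), with the mean as a point and a bar from the lowest to the highest library, for 7 control libraries (blue circles) and 3 cKO libraries (red squares). From Lhx2 at 83.7 RPKM to Sp8 at 1.14 RPKM the control means fall from left to right, and the cKO means of Nr2f2 and Dmrta2 stand above that fall.

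Ratios of paralogs within a library do not depend on how libraries are scaled, and they were compared as values with no test. The ratio of Lhx2 to Lhx9 reads was 6.41, 6.79 and 5.47 in the cKO libraries and 10.5 to 80.9 with a median of 14.0 in the controls. All 3 cKO ratios were below the lowest control. The ratio of Emx1 to Emx2 was 2.68, 0.984 and 1.19 in cKO against 1.72 to 7.52 with a median of 2.79 in controls. For Nr2f1 to Nr2f2 it was 0.971, 1.75 and 1.13 against 1.28 to 2.86 with a median of 2.40. In both of these pairs 2 of the 3 cKO libraries were below the lowest control. The mean log2 ratio of cKO minus that of controls was -1.52 for Lhx2 to Lhx9, -1.03 for Emx1 to Emx2 and -0.89 for Nr2f1 to Nr2f2. The value for Lhx2 to Lhx9 includes control replicate 1, at a log2 ratio of 6.34 against 4.10 in the next control.

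**Figure D4:**
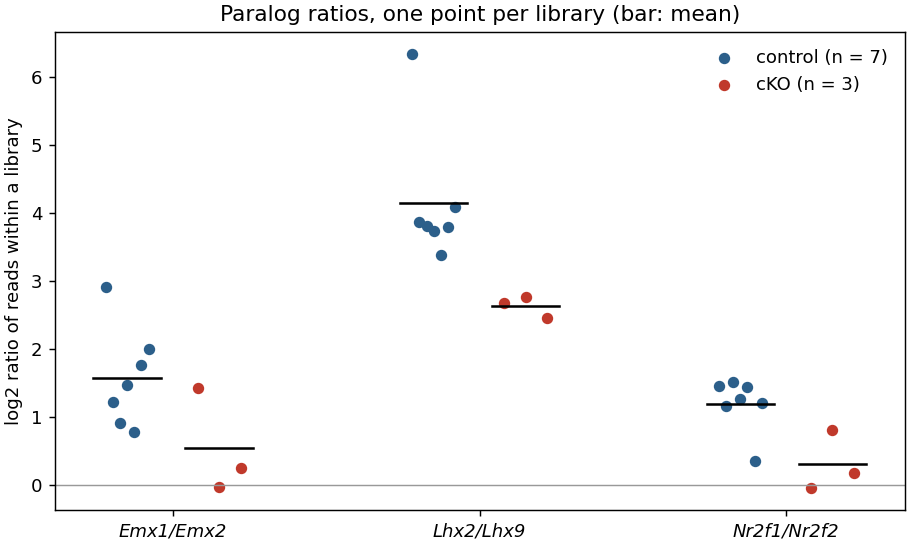
Log2 ratio of reads between paralogs within each library for Emx1 to Emx2, Lhx2 to Lhx9 and Nr2f1 to Nr2f2, in 7 control libraries (blue) and 3 cKO libraries (red), with a black bar for the mean of each group. All cKO points of Lhx2 to Lhx9 lie below the controls, and control replicate 1, at 6.34, stands far above the other controls of that pair.

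The genes whose library-to-library deviations from their genotype mean were most like those of the called members were looked up among genes with at least 50 reads on average. Over the 10 libraries, Nr2f2 went most closely with B230219D22Rik (Pearson's r = 0.940, Spearman's rho = 0.939), Fam102b (0.915 and 0.903) and Cdk14 (0.915 and 0.903), of 7873 genes. Dmrta2 went most closely with Cenpb (0.932 and 0.855), Rbsn (0.904 and 0.915) and Traf6 (0.899 and 0.855), of 7874 genes. These values describe the best of all genes searched over libraries that share depth and cell make-up, and no p was computed.

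Around the members in the patterning system stand other transcription factors, their cofactors, the ligands of the signalling centres, and the receptors and targets of those ligands. Among 16 other patterning factors, including Pax6 and Gli3, 14 were tested and 0 passed the edgeR test in either direction, with a median log2 fold change of 0.35. At an unadjusted p under 0.05, 5 were higher and 2 lower, and DESeq2 called 1 lower and limma-voom 0. Of 17 binding partners and corepressors, 15 were tested, 0 rose and 1 fell in edgeR, with a median of 0.11, and 2 were higher and 2 lower at an unadjusted p under 0.05. DESeq2 and limma-voom each called 0 higher and 1 lower. Lmo1, a LIM-only protein that competes for Ldb1, fell by 1.13 on the log2 scale (SE 0.22, edgeR adjusted p = 0.00799), from a range of 120.5 to 196 CPM in controls to 49.2 to 97.2 CPM in cKO. Of 23 ligands, 10 were tested, 1 rose and 1 fell, with a median of 0.33, while DESeq2 called 0 higher and 1 lower and limma-voom 1 of each. At an unadjusted edgeR p under 0.05, 3 were higher and 1 lower, and the list summed to 243 to 258 CPM in cKO and 271 to 376 CPM in controls. Fgf15, an FGF of forebrain progenitors, had 12.2 to 19.5 CPM in cKO and 0 to 5.76 CPM in controls (log2 fold change 2.87, SE 0.58, edgeR adjusted p = 0.00721). With 29 to 50 reads in cKO and 0 to 16 in controls, it passed the filter on mean reads through the cKO libraries. Wnt7b, a WNT ligand of cortical neurons, fell by 1.403 (SE 0.19, edgeR adjusted p = 0.000326), and its cKO range of 54.3 to 59.2 CPM was below the control range of 122 to 199 CPM. Those CPM are part of the ligand sums, while 7 of the 10 tested ligands had positive fold changes. Fgf8 had no read in any library.

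Of 21 receptors and feedback targets, 16 were tested, 2 rose and 0 fell in edgeR, with a median log2 fold change of 0.16, and 5 were higher and 1 lower at an unadjusted p under 0.05. DESeq2 called 2 higher and 0 lower, and limma-voom 1 and 0. Both are transcriptional readouts of signalling. Etv4, a target of FGF signalling, had 5.86 to 24.4 CPM in cKO and 0 to 5.04 CPM in controls (log2 fold change 2.30, SE 0.53, edgeR adjusted p = 0.0201). It too passed the filter through the cKO libraries, with 15 to 73 reads there and 0 to 14 in controls. Axin2, a target and brake of WNT signalling, had 10.5 to 26.1 CPM in cKO and 3.17 to 8.66 CPM in controls (1.71, SE 0.36, edgeR adjusted p = 0.0124). Of 18 markers of cortical areas, 17 were tested, 0 rose and 2 fell in edgeR, with a median of -0.15, and 2 were higher and 7 lower at an unadjusted p under 0.05. DESeq2 called 0 higher and 5 lower, and limma-voom 0 and 1. Tenm3, a teneurin that guides connections, fell by 1.31 (SE 0.27, edgeR adjusted p = 0.0122) with overlapping ranges of 23.98 to 40.6 CPM in cKO and 39.6 to 104 CPM in controls. Cdh8, a cadherin of frontal and limbic cortex, fell by 1.07 (SE 0.26, edgeR adjusted p = 0.0276).

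Marker lists of cell types were set beside the members. Of 10 Cajal-Retzius markers 8 were tested and 8 rose (6 in DESeq2 and 8 in limma-voom), with a median log2 fold change of 2.70. The filter is a mean over all libraries, so a gene low in controls could pass it through cKO and hardly be called lower. Lhx1 passed in this way, with 31 to 50 reads in cKO and 0 to 11 in controls. The summed level of the 10 markers was 750, 658 and 905 CPM in cKO replicates 1, 2 and 3 and 26.3 to 235 CPM in controls. Cajal-Retzius cells are early reelin-producing neurons of the marginal zone that come from the hem and other borders of the cortex. Reln, which encodes reelin, had 243 to 361 CPM in cKO and 2.85 to 78.2 CPM in controls (2.71, SE 0.41, edgeR adjusted p = 0.000949). The transcription factors Lhx1 (3.68, SE 0.54, edgeR adjusted p = 0.000231) and Nhlh2 (1.84, SE 0.30, edgeR adjusted p = 0.001795) and the secreted protein Ndnf (3.19, SE 0.48, edgeR adjusted p = 0.000788) rose as well. Control replicate 1, the lowest library in Emx2 and Lhx9, was the lowest in these markers, with 26.3 CPM, and also the lowest in Lhx2, in Otx1 and in the summed intermediate progenitor (666 CPM), hippocampal (194 CPM) and diencephalic (85.3 CPM) markers. Control replicate 6, with 84.9 CPM of Cajal-Retzius markers, had 41.0 CPM of Emx2 and 31.4 CPM of Lhx9. Both were above the control medians of 30.9 and 26.5 CPM. Among the cKO libraries, replicate 3 was the highest in Cajal-Retzius markers, Emx2 and Lhx9 and the lowest in Nr2f2 and Dmrta2. The part of Cajal-Retzius cells in the values of Nr2f2, Dmrta2, Emx2 and Lhx9 was not tested.

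**Figure D5:**
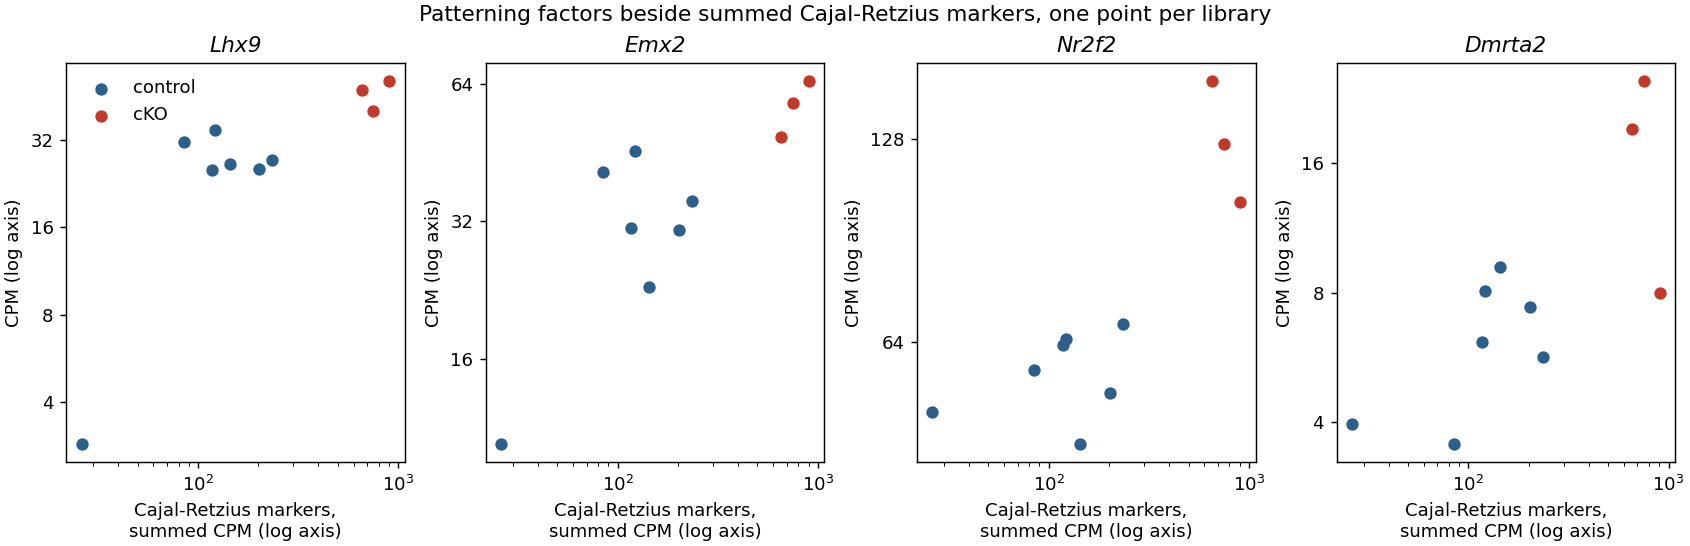
CPM of Lhx9, Emx2, Nr2f2 and Dmrta2 against the summed CPM of 10 Cajal-Retzius markers (log axes), with 1 point per library, controls in blue and cKO in red. The cKO libraries lie to the right at 658 CPM and above, and in the panels of Lhx9 and Emx2 control replicate 1 lies at the lower left with 26.3 CPM. Control replicate 6, at 84.9 CPM, lies above the control median in both of these panels.

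Of 12 projection neuron markers all 12 were tested, 0 rose and 4 fell in edgeR, with a median of -0.74, and 0 were higher and 8 lower at an unadjusted p under 0.05. DESeq2 called 0 higher and 6 lower and limma-voom 0 and 4, and the summed levels were 2698 to 2919 CPM in cKO and 4118 to 5348 CPM in controls. Among those that fell were Neurod6 by 0.98 (SE 0.14, edgeR adjusted p = 0.000471), Neurod2 by 0.75 (SE 0.14, edgeR adjusted p = 0.00566) and Cux2 by 1.07 (SE 0.25, edgeR adjusted p = 0.0257). Radial glia markers, the progenitor class in which most of the 9 factors act, had 0 of 11 tested genes called by edgeR, DESeq2 or limma-voom, 3 higher and 0 lower at an unadjusted p under 0.05, a median of 0.26 and summed levels of 1560 to 2938 CPM in cKO against 1649 to 2805 CPM in controls. Intermediate progenitor markers had 0 of 8 called by the 3 tools, 2 higher and 1 lower at an unadjusted p under 0.05, a median of 0.25 and 1054 to 1333 CPM against 666 to 1400 CPM. Both progenitor lists overlapped between genotypes.

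Markers of tissue next to the neocortex and of other cells were set beside the members as well. Of 8 hem and choroid plexus markers 1 was tested, Ttr, with 5.47 to 54.3 CPM in cKO and 0 to 19.8 CPM in controls. Its log2 fold change was 2.52 (SE 0.73), which had an unadjusted p under 0.05 but was not called by edgeR (adjusted p = 0.0753), DESeq2 or limma-voom. The list summed to 10.2 to 63.5 CPM in cKO and 0 to 33.6 CPM in controls. Of 6 hippocampal markers 5 were tested, all with positive fold changes and a median of 1.17, and 3 were higher at an unadjusted p under 0.05. The 1 that rose in edgeR was Prox1 of the dentate gyrus (1.44, SE 0.38, edgeR adjusted p = 0.04995), while DESeq2 called 0 hippocampal markers and limma-voom 1. Hippocampal sums were 510 to 680 CPM against 194 to 706 CPM, of which Zbtb20 alone gave 424 to 585 CPM in cKO and 175 to 651 CPM in controls.

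Of 8 diencephalic markers 5 were tested, with a median log2 fold change of 0.45, and 1 rose (1 also in DESeq2 and in limma-voom), Calb2, which also stands in the Cajal-Retzius list (2.47, SE 0.43, edgeR adjusted p = 0.002755). The diencephalic sums were 303 to 444 CPM in cKO, all above the control range of 85.3 to 204 CPM, and Calb2 alone gave 125 to 257 CPM of them in cKO and 4.67 to 66.2 CPM in controls. Of 11 interneuron markers 9 were tested, 8 of them with positive fold changes, with a median of 1.08, and 5 were higher and 1 lower at an unadjusted p under 0.05. In edgeR Dlx2 was higher (1.63, SE 0.41, edgeR adjusted p = 0.0354) and the neuropeptide Npy lower (fell by 3.64, SE 0.83, edgeR adjusted p = 0.0205). DESeq2 called 1 interneuron marker higher and 1 lower, and limma-voom 1 higher and 0 lower. Interneuron sums were 49.2 to 179 CPM against 66.2 to 274 CPM, of which Npy alone gave 0.781 to 17.2 CPM in cKO and 31.5 to 232 CPM in controls. Beside Nr2f2, none of 8 vascular markers reached the filter, and their sums were 3.35 to 20.7 CPM in cKO and 2.52 to 8.66 CPM in controls. The part of hippocampal, diencephalic, interneuron, hem or vascular cells in the values of the members was not tested. Cells came from dissected neocortex and were sorted for MADM label, which needs Emx1-Cre, and the purity of the sort was not tested. No gene of 7 microglial markers was tested (0.781 to 32.8 against 0 to 6.06 CPM), and of 6 meningeal, 6 red blood cell and 5 oligodendrocyte precursor markers 1, 5 and 1 were tested and 0 were called by edgeR, DESeq2 or limma-voom. At an unadjusted edgeR p under 0.05, 1 meningeal marker was higher and 1 red blood cell marker lower. Summed levels were 23.8 to 43.8 CPM in cKO and 9.82 to 29.7 CPM in controls for the meninges, and 7.81 to 28.1 against 0 to 83.5 CPM for oligodendrocyte precursors. The cell type markers without a read in any library were Kcne2, Nkx2-1 and Hbb-y, while Lhx6 and Sst, also interneuron markers, reached 13.04 and 42.9 CPM in cKO and 9.24 and 61.8 CPM in controls.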

How the data were processed

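RNA from 400 sorted MADM-labelled cells of 1 E16 embryo per library was processed by Smart-Seq2, for 7 control MADM-7 embryos and 3 of the genotype cKO-Cdkn1c-MADM-7. The authors merged technical replicates, converted BAM to FASTQ with bedtools 2.26.0, aligned with STAR 2.5.0c to GRCm38 allowing 1 alignment per read, and counted reads on GENCODE M16 genes. The deposited values are raw read counts without normalization, in 3 columns per library that ignore strand or take either strand. Sense reads made up 50.3% to 50.5% of stranded counts, so the column that ignores strand was used. It omits reads that overlap more than 1 gene. Reads are not molecules, so read numbers understate counting error. The intervals and tests use the spread between libraries, and amplification error that differs between libraries is part of that spread.

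Symbols and positions came from GENCODE M21 on GRCm38, where 50604 identifiers matched with version, 2670 without it and 105 not at all. The 11551 genes averaging 10 or more reads per library were tested with edgeR 4.0.16 in R 4.3.3 (TMM, quasi-likelihood, genotype alone), with Benjamini-Hochberg adjustment over the 11551 genes and a threshold of 0.05. SE is the log2 fold change divided by the root of its F statistic. The exact permutation test is two-sided, doubles the smaller tail, uses log2(CPM + 0.5) over 120 splits and is not adjusted. DESeq2 1.42.0 and limma 3.58.1 served as alternatives, with other normalizations, filters, counts, a covariate, a replicate block and each library left out. The procedure was tested on simulated data. Within genotypes, 24 library pairs had a chi-square per degree of freedom of 4.91 to 23.7, so no pair agreed within sampling noise. Replicate numbers shared by the genotypes did not pair the libraries. Plots used Python 3.11.15 and matplotlib 3.10.9.

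The members and gene lists were chosen with earlier results of these data known, so counts over them are descriptions. Named genes are all members, Cdkn1c, in each list up to 4 genes with the smallest adjusted p under 0.05, for each called member the 3 genes most like it in pattern, and genes overlapping a member. Ttr, Fgf8, Kcne2, Nkx2-1, Hbb-y, Lhx6, Sst, Zbtb20, Lef1 and Dmrt3 were named after their values were seen. Values of some listed genes are not reported here, and list counts, medians and sums still include them.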

Additional observations from a re-analysis of the deposited data

Results flagged for a closer look

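In 30 sets of 7 control values, the 9 members, 3 paralog ratios and 18 summed lists, the gap of an end value to its neighbour was compared with Dixon's critical share of the whole range for 7 values. It was exceeded in 6 sets, and chance flags about 1 in 20. Emx1 stood apart in control replicate 6, at 139.81 CPM against 91.7 CPM in the next control. Lhx9 stood apart in control replicate 1, at 2.88 CPM with the next control at 25.1 CPM, and so did the log2 ratio of Lhx2 to Lhx9 reads there, at 6.34. The log2 ratio of Nr2f1 to Nr2f2 reads was low in control replicate 6, at 0.36. The summed level of the signalling centre ligands was high in control replicate 2, at 376.4 CPM, and that of oligodendrocyte precursor markers in control replicate 1, at 83.48 CPM.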

How the results depend on the processing

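Nr2f2 was called in all 20 alternatives, with log2 fold changes between 1.0 and 1.29 and edgeR, DESeq2 or limma adjusted p up to 0.038. Dmrta2 was called in 11 of 20, Emx2 and Lhx9 only with no filter on low counts (edgeR adjusted p = 0.0179 and 0.0277), and the other members in none. Adjusted p ran from 0.00294 to 0.250 for Dmrta2, from 0.0179 to 0.227 for Emx2 and from 0.0277 to 0.303 for Lhx9. The number of members called was 1 with limma-voom, 4 with no filter, 1 with the replicate block, 1 without the libraries rich in red blood cell markers, and 1 to 2 with each library left out. The number of genes called, 364 as reported, was 510 with DESeq2 (300 higher and 210 lower) and 297 with limma-voom. It was 961 of 26537 with no filter and 209 of 9554 with at least 10 reads in every library. With the replicate block it was 213, without the libraries rich in red blood cell markers 278 of 11540, and with each library left out 271 to 419. With no filter the unadjusted p of Emx2 and Lhx9 also fell, to 0.000473 and 0.000838. The cause of these changes was not tested.

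Of 178 fold changes of members under alternatives, 159 kept direction and call, 9 lost a call, 2 gained one and 8 reversed. With 1 library left out, the log2 fold change ran from -0.49 to 0.43 for Emx1, from -0.19 to 0.53 for Nr2f1, from -0.13 to 0.27 for Otx1 and from 0.095 to 0.960 for Sp8. Otx1 reversed to -0.017 when reads outside genes, as a share, entered as a covariate, and to -0.13 without cKO replicate 2, -0.03 without cKO replicate 3, -0.04 without control replicate 1 and -0.0094 without control replicate 5. Emx1 reversed to -0.49 without cKO replicate 1 and to -0.54 without the libraries rich in red blood cell markers. Nr2f1 reversed to -0.19 without cKO replicate 2. Leaving out the red-blood-cell-rich libraries and counting permutations over absolute differences were added after the data were seen. With absolute differences the permutation p was 0.00833 for Nr2f2, 0.05 for Emx2, 0.142 for Lhx9 and 0.025 for Dmrta2. With the longest transcript in place of merged exons, 6 of 9 level places stayed. The filter of 10 reads in every library removed Lhx9 and Sp8. No scaling moved the median of all genes by more than 0.1.

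Pairing by replicate number was checked. The deviations of same-numbered libraries correlated at 0.035, -0.107 and -0.207, and each cKO library correlated best with a control of another number, so the libraries share only a number. In the fit with the replicate block, over the 3 pairs, the log2 fold change was 1.65 for Dmrta2 (edgeR adjusted p = 0.126), 1.22 for Emx2 (0.0860) and 1.43 for Lhx9 (0.0582). Sp8 and Dmrta2 had the fewest reads, 158 and 263 over all libraries.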
